A study of Mus musculus with 4 samples.

Results

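The platelet-derived growth factor (PDGF) ligands and receptors were followed through gene expression arrays of a pair of mouse mammary epithelial lines. The members were Pdgfra, Pdgfrb and Pdgfrl on the receptor side and Pdgfa, Pdgfb, Pdgfc and Pdgfd on the ligand side, 7 of 28146 gene names on the array. Every probe that carried one of these names was taken, which gave 13 of 41174 probes that were not controls. The family was chosen by the differences of its members between the lines in these same values, so that they are given below as a description. No p is printed for any member. Counts of members past a limit on p are given further below and are no test of the members.

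PDGF ligands are secreted dimers that bind receptor tyrosine kinases at the cell surface. Ligand binding pairs receptor chains, which phosphorylate each other and recruit adaptors, kinases and phosphatases to the cytoplasmic tail. In many tissues, the mammary gland included, epithelial cells release the ligands and the neighbouring mesenchymal cells carry the receptors.

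RNA came from EPH-4 cells, a non-malignant line of mouse mammary gland epithelium. EV-50 is a stable line with the empty vector H1-2, and shGR-19 is a stable line with an shRNA vector against the endogenous glucocorticoid receptor (GR, gene Nr3c1). Both lines also carry a puromycin marker, each is 1 clone, and both grew in serum-free DMEM/F-12 medium with 2 µg/ml puromycin, with no treatment in the labels. The paper reports that the lines were kept without glucocorticoids and calls GR in them unliganded. For each line 2 arrays were hybridized, with 300 ng RNA labelled with Cy3 for each. The paper says that RNA of each sample was labelled in duplicate, and no source says that the duplicates were separate cultures. The spread between them may thus be technical. Every standard error and adjusted p below rests on spread of this kind, within 1 clone per line. A difference between clones cannot be told apart from a difference in GR.

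Each member was read from 2 deposited sources. The first is the scanner signal of the 4 arrays, named here by their labels as arrays 1 and 2 of each line and taken as a log2 ratio to the 75th percentile of that array. The second is the deposited table, which holds log2 values for these samples and in which each probe is centred on its median. A probe was kept if it was well above background on both scanner arrays of at least 1 line, which left 24439 probes in all and 8 of the 13 member probes, from 6 of the 7 genes. Of those 8, 7 were well above background on all 4 arrays.

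The sources do not hold the same difference between the lines. Over the 21173 probes above background on all 4 arrays, the SD of the log2 difference between EV-50 array 1 and shGR-19 array 1 was 0.23, whereas it was 0.62 and 0.70 between duplicates of the same line. In the table that SD was 0.20 and 0.21 between duplicates and 0.53 to 0.54 between columns of different lines. Across these probes, which are not independent, the difference in the table correlated with that between the arrays numbered 2 (r = 0.91) and not with that between the arrays numbered 1 (r = 0.043). Nr3c1, the target of the shRNA, differed by -0.35 between the arrays numbered 1 and by -1.95 between those numbered 2, by its brightest probe. The labels of the scanner arrays may not match the samples of the table, which was not tested, and every scanner mean, standard error and overlap below takes these labels as given. All kept member probes are therefore given on every array, and the difference between the arrays numbered 2 is the value without the arrays numbered 1.

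Probes on the array are 60 bases long, and the place of each in its transcript decides what it reads. The sequences below are of 3 probes, shown because they stand for different readouts described below: a Pdgfra probe that did not separate the lines, a Pdgfa probe that did so in the table only, and a Pdgfd probe below background. The probe of Pdgfra at chr5:75559613-75559672 (mm9, plus strand) begins at base 281 of NM_011058. That of Pdgfa lies at chr5:139455132-139455191 (mm9, minus strand) and that of Pdgfd at chr9:6376926-6376985 (mm9, plus strand).
Pdgfra A_52_P264283: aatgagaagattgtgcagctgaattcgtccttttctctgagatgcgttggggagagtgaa
Pdgfa A_51_P370099: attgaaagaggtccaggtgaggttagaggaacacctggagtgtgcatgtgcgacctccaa
Pdgfd A_52_P264790: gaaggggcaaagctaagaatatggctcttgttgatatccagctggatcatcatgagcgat

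The genes on the receptor side were all higher in shGR-19 than in EV-50 in the value table. The difference was 2.24-fold for Pdgfra, 4.10-fold for Pdgfrb and 4.01-fold for Pdgfrl. The arrays numbered 2 gave differences of like size, and the arrays numbered 1 gave 0.74, 0.20 and 0.010 on the log2 scale in the same order. Averaged over all 4 scanner arrays, the difference was smaller than its standard error for Pdgfra and Pdgfrb and larger for Pdgfrl.

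Pdgfrb encodes the beta receptor, the main receptor for PDGF-B. Its probe A_51_P150964 lies at chr18:61244595-61244654 (mm9, plus strand). The scanner signal was 115 and 2005 on EV-50 arrays 1 and 2, and 129 and 8899 on shGR-19 arrays 1 and 2. Relative to the 75th percentile these were -2.20, 1.78, -2.00 and 3.94 (log2). Both arrays numbered 1 were low and both numbered 2 were high, and the lines overlapped. The duplicates lay 15.7-fold apart in EV-50 and 61.5-fold apart in shGR-19, more than the 4.48-fold between the lines on the arrays numbered 2. The mean difference between the lines was 1.18 (SE 2.43, n = 2 per line), and leaving out a single array moved it from -1.79, without shGR-19 array 2, to 4.15, without shGR-19 array 1. It was -0.81 without EV-50 array 1 and 3.17 without EV-50 array 2. In the table the values were -0.98 and -1.03 in EV-50 and 1.07 and 0.98 in shGR-19, with no overlap. The table difference was 2.03 (SE 0.059), or 4.10-fold, the 95th highest of the kept probes.

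Pdgfrl encodes a secreted protein that resembles the outer part of a PDGF receptor and has no kinase. Its probe A_51_P466229 lies at chr8:42075859-42075918 (mm9, plus strand). The signal was 1379 and 1362 in EV-50 and 1357 and 5105 in shGR-19. Thus 3 of the 4 arrays had nearly the same signal, and shGR-19 array 2 stood above them. Relative to the 75th percentile the values were 1.39, 1.22, 1.40 and 3.14 in the same order, and both shGR-19 values were above both EV-50 values, for the arrays numbered 1 by only 0.010. The arrays numbered 2 differed by 1.92 or 3.78-fold, and the mean difference was 0.97 (SE 0.63). That mean was 0.093 without shGR-19 array 2 and 1.84 without shGR-19 array 1. In the table the values were -0.98 and -1.02 in EV-50 and 1.03 and 0.98 in shGR-19. The lines did not overlap there and differed by 2.01 (SE 0.053), or 4.01-fold. The other probe, A_52_P537350, is assigned to the transcript AK081847 at chr8:42025122-42025181 and was above background on 0 arrays.

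Pdgfra encodes the alpha receptor, which binds the A, B and C chains. Its probe A_51_P345649 lies at chr5:75593888-75593947 (mm9, plus strand), at base 6211 of the transcript and 34275 bases downstream in the genome from the probe printed above. It was dim, with a signal of 9.90 and 36.7 in EV-50 and 16.1 and 81.3 in shGR-19. It was well above background on 3 arrays and not on EV-50 array 1. Relative to the 75th percentile the values were -5.74, -3.99, -5.00 and -2.83, so that the lines overlapped and each array numbered 2 was above its duplicate. The difference was 0.74 between the arrays numbered 1 and 1.16 between those numbered 2, a 2.24-fold change. The mean difference was 0.95 (SE 0.96), and with normexp background correction it was 0.29. The sign and size of that mean turned on single arrays. Without shGR-19 array 2 it was -0.14, and without EV-50 array 1 it was 0.077. Without EV-50 array 2 it was 1.82, and without shGR-19 array 1 it was 2.03. In the table the values were -0.56 and -0.56 in EV-50 and 0.65 and 0.56 in shGR-19, a difference of 1.16 (SE 0.058) or 2.24-fold.

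The Pdgfra probe near the start of the transcript, A_52_P264283, did not show this pattern. Relative to the 75th percentile its values were -5.70 and -6.02 in EV-50 and -5.70 and -5.44 in shGR-19, and it was well above background on 1 array only, shGR-19 array 2. Its table values were -0.57 and 0.33 in EV-50 and 0.28 and -0.28 in shGR-19, so that the lines overlapped. The higher value of Pdgfra in the table therefore rests on 1 of its 2 probes.

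**Figure D1:**
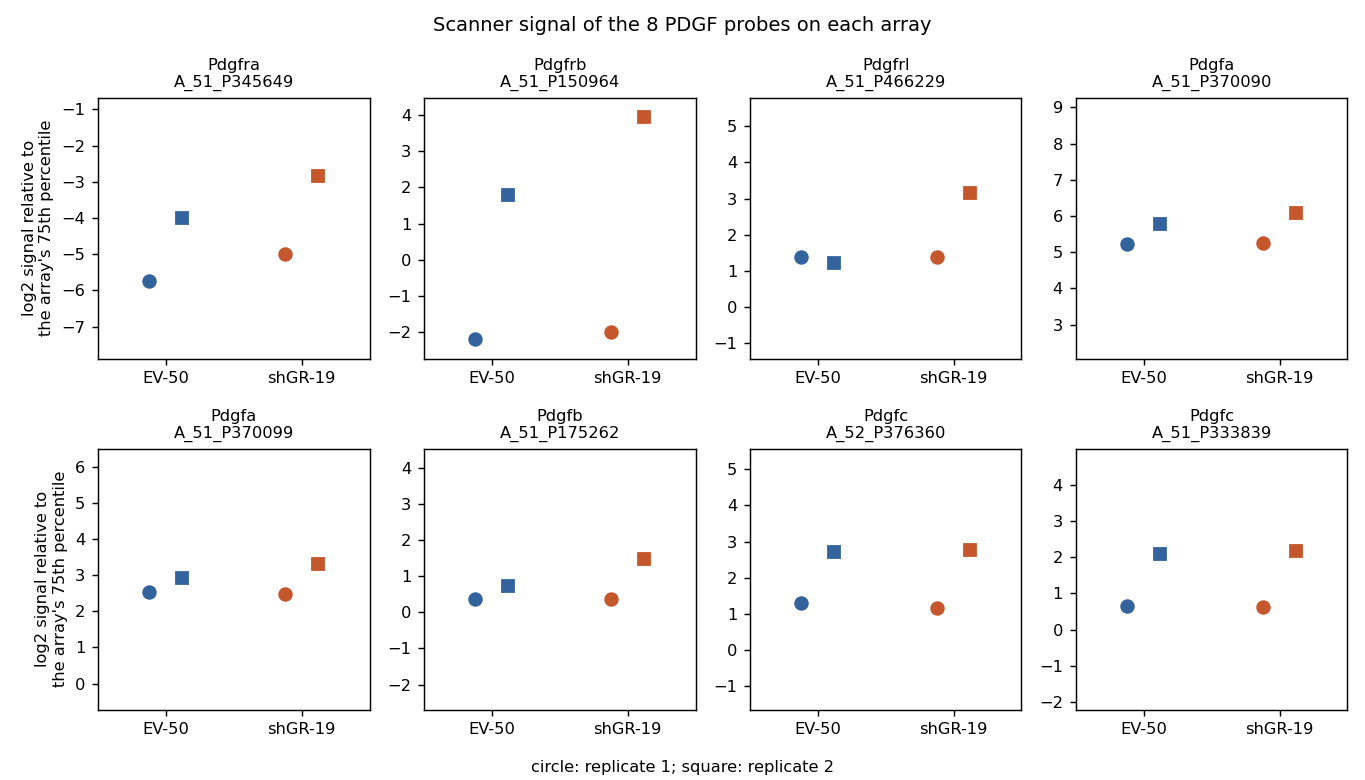
Scanner signal of the 8 kept PDGF probes, as a log2 ratio to the array's 75th percentile, with EV-50 in blue, shGR-19 in orange, circles for arrays numbered 1 and squares for arrays numbered 2. Every panel spans the same number of log2 units but is centred on its own probe. In Pdgfrb both squares lie 3.98 or more above the circle of the same line, and in Pdgfrl only the shGR-19 square stands apart.

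The kept probes of the ligand genes differed between the lines by 0.0029 to 0.48 on the log2 scale in the table. That was less than for the genes on the receptor side, and none of the kept ligand probes reached 2-fold. Pdgfa and Pdgfb were higher in both shGR-19 columns than in both EV-50 columns, Pdgfc was not, and Pdgfd was not measured above background.

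Pdgfa encodes the A chain, a ligand of the alpha receptor. Its probe A_51_P370090 lies at chr5:139453029-139453088 (mm9, minus strand). Relative to the 75th percentile its values were 5.23 and 5.77 in EV-50 and 5.26 and 6.09 in shGR-19, and the lines overlapped. The difference was 0.033 between the arrays numbered 1 and 0.32 between those numbered 2. In the table the values were -0.21 and -0.22 in EV-50 and 0.30 and 0.21 in shGR-19, a difference of 0.47 (SE 0.057) or 1.39-fold. The probe printed above, A_51_P370099, had scanner values of 2.52, 2.92, 2.47 and 3.30 in the same order of arrays and a table difference of 0.45 (SE 0.059) or 1.36-fold. The 2 probes of Pdgfa thus gave table differences that lay closer to each other than their standard errors.

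Pdgfb encodes the B chain, which binds both kinase receptors. Its probe A_51_P175262 lies at chr15:79827138-79827197 (mm9, minus strand). The signal was 685 and 964 in EV-50 and 660 and 1605 in shGR-19. The lines overlapped, with the lowest and the highest signal both in shGR-19. The difference was -0.022 between the arrays numbered 1 and 0.75, or 1.68-fold, between those numbered 2. In the table the values were -0.27 and -0.19 in EV-50 and 0.19 and 0.32 in shGR-19, which gave 0.48 (SE 0.074) or 1.40-fold. The other Pdgfb probe, A_52_P618427, was above background on 0 arrays.

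Pdgfc encodes the C chain, which is secreted with an inhibitory domain that proteases remove. Its probe A_52_P376360 lies at chr3:81017572-81017631 and its probe A_51_P333839 at chr3:81017419-81017478 (mm9, plus strand). The first had a signal of 1299 and 3852 in EV-50 and 1150 and 3931 in shGR-19. The second had 827 and 2468 in EV-50 and 791 and 2605 in shGR-19. On both probes the arrays numbered 2 were high and those numbered 1 low in either line, and the lines overlapped. For A_52_P376360 the duplicates differed by 1.42 in EV-50 and 1.61 in shGR-19 (log2), whereas the lines differed by -0.14 between the arrays numbered 1 and 0.043 between those numbered 2. The table differences were 0.012 (SE 0.052) and 0.0029 (SE 0.056) for A_52_P376360 and A_51_P333839, smaller than their standard errors.

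On the scanner arrays the sign of every mean ligand difference turned with the array left out, and each was lowest without shGR-19 array 2 and highest without shGR-19 array 1. For A_51_P370090 of Pdgfa the mean was 0.18 (SE 0.39) and ranged from -0.24 to 0.59. For Pdgfb it was 0.36 (SE 0.44) and ranged from -0.19 to 0.92. For A_52_P376360 of Pdgfc it was -0.050 (SE 0.75) and ranged from -0.85 to 0.75.

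Pdgfd encodes the D chain, a ligand of the beta receptor that is also released by proteases. Its probes A_52_P636948 and A_52_P264790 were well above background on 0 of 4 arrays, with signals no higher than 4.64. The 5 member probes that were not kept had signals from 1.82 to 13.3, and the background limits what the table holds for them. For A_52_P264790 the table values were 0.34 and 2.05 in EV-50 and -0.34 and -0.44 in shGR-19, without overlap but with the EV-50 duplicates farther apart than the means of the lines. No fold is given for Pdgfd.

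**Figure D2:**
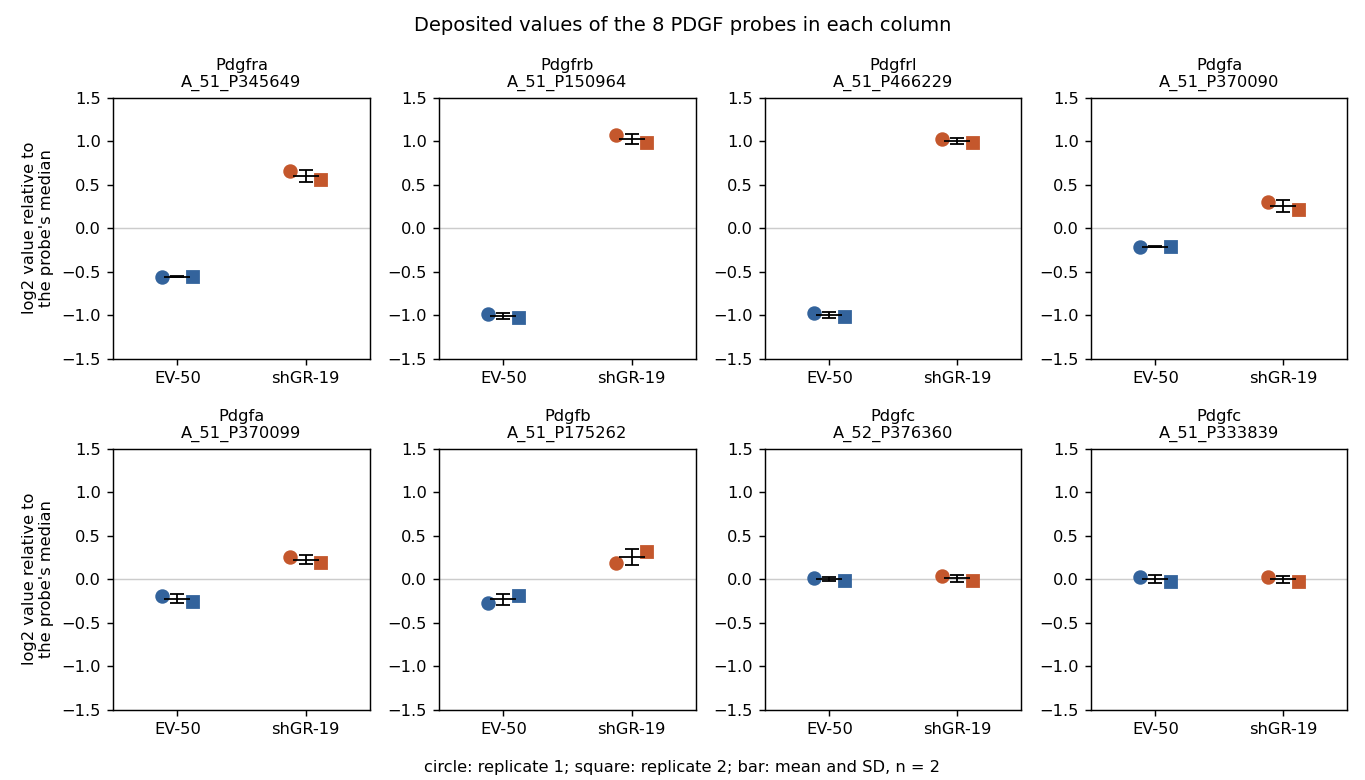
Deposited log2 values of the 8 kept PDGF probes in each column of the value table, relative to the median of the probe, on 1 common scale, with points for columns and bars for the mean and SD (n = 2). The lines lie apart for all probes of Pdgfra, Pdgfrb, Pdgfrl, Pdgfa and Pdgfb shown and coincide for both probes of Pdgfc.

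Over the 8 kept member probes, the median table difference was 0.48, and it was 0.0087 over all kept probes. In the table both shGR-19 columns were above both EV-50 columns for 6 of the 8, beside 36.6% of all kept probes, and below them for 0, beside 35.3%. On the scanner arrays both shGR-19 values were above both EV-50 values for 1 of the 8, beside 11.7% of all kept probes, and below them for 0, beside 6.14%. By more than 2-fold and an adjusted p below 0.01 (limma, Benjamini-Hochberg over all kept probes), 3 of the 8 were called higher in the table, beside 1.87% of all kept probes, and 0 lower, beside 2.39%, so that 3 of 8 were called in either direction, beside 4.26%. On the scanner arrays 0 of the 8 were called, beside 0%. At an unadjusted p below 0.05 the scanner arrays gave 209 probes, of which 0 were members. These counts are no test of the members and nothing is read from them, since the same difference served to choose the family. The Pdgfra probe was moreover kept through shGR-19 alone, the line in which it was high, as it was well above background on both shGR-19 arrays and on 1 EV-50 array. The 3 table calls, all on the receptor side, were lost when any 1 of the 4 columns was left out. They were also lost when all 41174 probes entered the adjustment. With a column left out the differences still lay from 1.12 to 1.21 for Pdgfra, from 1.99 to 2.08 for Pdgfrb and from 1.98 to 2.03 for Pdgfrl.

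All 8 kept probes were higher on shGR-19 array 2 than on EV-50 array 2, and 4 of the 8 were higher on shGR-19 array 1 than on EV-50 array 1. Between duplicates, the array numbered 2 was the higher for 8 of 8 probes in shGR-19 and for 7 of 8 in EV-50, with Pdgfrl as the exception. The table difference lay within 0.27 of the difference between the arrays numbered 2 for each of the 8 probes.

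**Figure D3:**
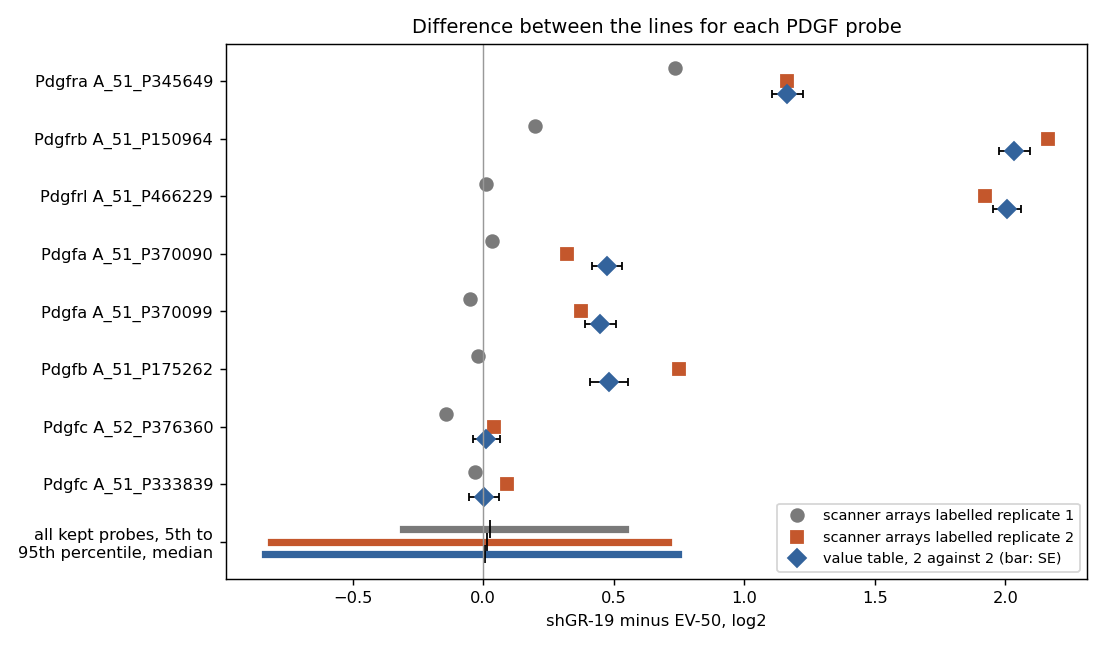
Difference between shGR-19 and EV-50 (log2) of each kept PDGF probe between the scanner arrays numbered 1 (grey circles), between those numbered 2 (orange squares) and in the value table (blue diamonds, bars for the SE), with the 5th to 95th percentile and the median of all 24439 kept probes in the same colours at the bottom. The 3 kept probes on the receptor side lie above the 95th percentile of 0.75 in the table, and the ligand probes lie below it.

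The genes whose values over the 4 arrays and 4 columns lay nearest to those of a member on the receptor side were named as a description. Nearness was taken by Euclidean distance after centring each source. For Pdgfrl they were Sept5, Rhog and Ier5l, at distances from 0.11 to 0.20, and each had 3 arrays alike and a higher value on shGR-19 array 2. For Pdgfrb the nearest probes were those of Sema3a, at 1.23 and 1.35, and Cd200, at 1.26. For Pdgfra they were Fam154b, Tnni3 and Mak, at 0.33 to 0.43. The likeness is over 4 samples only and follows from how these genes were picked.

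The stretch upstream of the start site was given by RefSeq (GRCm38.p6) for 4 of the 7 genes, Pdgfra, Pdgfa, Pdgfc and Pdgfd, and not for Pdgfrb, Pdgfrl and Pdgfb. The 250 bases before the start were searched on both strands for 4 short motifs. The glucocorticoid receptor half-site was searched as AGAACA and the binding site of ETS family factors as CCGGAAG. The GC box, bound by Sp1 and its relatives, was searched as GGGCGG, and the TATA box as TATAAA. Shown are the windows of Pdgfra and of the upstream start of Pdgfa, the members with an entry and a difference in the table, at chr5:75152001-75152250 (plus strand) and chr5:138994945-138995194 (minus strand). Capitals mark matches to the half-site, the ETS site, the GC box or the TATA box.
Pdgfra upstream: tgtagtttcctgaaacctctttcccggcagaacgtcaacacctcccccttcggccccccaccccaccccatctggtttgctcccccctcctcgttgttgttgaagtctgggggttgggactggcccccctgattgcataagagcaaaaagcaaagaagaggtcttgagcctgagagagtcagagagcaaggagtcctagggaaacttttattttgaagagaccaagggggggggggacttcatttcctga
Pdgfa upstream: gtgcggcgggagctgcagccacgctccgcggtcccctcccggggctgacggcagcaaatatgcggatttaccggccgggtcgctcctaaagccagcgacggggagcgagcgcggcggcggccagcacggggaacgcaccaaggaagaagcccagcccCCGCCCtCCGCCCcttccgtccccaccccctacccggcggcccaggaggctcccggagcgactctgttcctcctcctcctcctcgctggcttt
The Pdgfra window held none of the 4 motifs. The Pdgfa window held 2 GC boxes, written on the opposite strand, and a second start of Pdgfa had 1, whereas 32.7% of 32851 such windows held at least 1. The half-site was in 0 of the 5 member windows and in 16.1% of all windows, and the ETS site in 0 and in 6.91%. Pdgfd had a TATA box, as did 12.4% of all windows. The G and C content was 54.4% for Pdgfra and 72.4% for the Pdgfa window shown, beside a median of 52.4%. Such letters describe the window and are not evidence of binding.

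Genes that act around the receptors were read from lists written from general knowledge, each gene by its brightest kept probe. In these lists a gene passed at an adjusted p below 0.01 in the value table by limma with Benjamini-Hochberg adjustment over all kept probes, of which 5.53% passed as higher and 6.04% as lower in shGR-19, 11.6% in all. No listed gene passed on the scanner arrays, where the smallest adjusted p of any probe was 0.930. No listed gene was called above 2-fold with any 1 table column left out.

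Several genes for proteins that activate, carry or bind PDGF were higher in shGR-19 in the table. Of 11 kept genes 5 passed as higher (45.5%), 0 as lower and 6 did not pass, and the median difference was 0.52. Sparc, a matrix protein that binds the B chain, was higher by 1.29 (SE 0.050, limma adjusted p = 0.00306). Plau, the urokinase that can cut the D chain, was higher by 0.99 (SE 0.064, limma adjusted p = 0.00500). Lrp1, a large uptake receptor that also associates with the beta receptor, was higher by 0.87 (SE 0.051, limma adjusted p = 0.00456). Furin, whose product cleaves the A and B chains, also passed, at 0.52. Between the arrays numbered 2 Sparc, Plau and Lrp1 differed by 1.28, 1.05 and 0.97, and between those numbered 1 by -0.041, -0.084 and -0.093. Of the 6 that did not pass, Nrp1 was lower, at -0.88 (SE 0.094, limma adjusted p = 0.0106). It differed by -0.61 between the arrays numbered 2 and by -0.061 between those numbered 1. Pcsk7, Pcsk6, St14, Plat and A2m differed by 0.53, 0.19, 0.17, 0.10 and 0.029 in the table. Pcsk5 and Serpine2 were not kept.

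Genes for the cytoplasmic partners of the receptors passed about as often as probes in general. Of 38 kept genes 3 passed as higher (7.89%), 1 as lower (2.63%) and 34 did not pass, with a median of 0.018. The higher genes were Ptpn1, a phosphatase that acts on the receptors, at 0.67 (SE 0.061), and the kinases Src at 0.62 (SE 0.055) and Fyn at 0.59 (SE 0.057). The Fyn probe was dim, with signals from 27.0 to 57.0. The adaptor gene Nck1 was lower, at -0.74 (SE 0.053). None of these 4 reached 2-fold in the table, and between the arrays numbered 1 they differed by 0.020, -0.074, -0.032 and -0.072.

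Genes that PDGF is known to induce within hours in fibroblasts moved both ways. Of 17 kept genes 5 passed as higher (29.4%), 2 as lower (11.8%) and 10 did not pass, with a median of 0.20. Dusp1, a phosphatase of MAP kinases, was higher by 1.47 (SE 0.092), and the transcription factor genes Fos and Fosb by 1.21 (SE 0.071) and 0.88 (SE 0.046). Ier2, another early gene, was higher by 0.56 (SE 0.047). Between the arrays numbered 2 Dusp1, Fos, Fosb and Ier2 differed by 1.09, 1.02, 1.23 and 0.54. Between those numbered 1 they differed by -0.19, 0.30, 0.11 and 0.092. The probes of Fos and Fosb were dim, with signals from 44.9 to 122 and from 52.0 to 178. The genes that passed as lower encode chemokines, Ccl2 at -3.84 (SE 0.076) and Cxcl1 at -1.41 (SE 0.078). On the arrays numbered 2 Ccl2 differed by -3.64 and Cxcl1 by -1.44, and on those numbered 1 by -0.31 and 0.016. The Ccl2 signal was 2140 and 172 in EV-50 and 1690 and 13.7 in shGR-19. The size of its difference between the arrays numbered 2 thus depends on a dim value, though one counted as well above background. Early genes also answer many other signals, and the labels give no treatment with PDGF.

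Related receptors and ligands gave 0 higher and 1 lower of 13 kept genes (7.69%), with a median of 0.058. The gene that passed was Vegfc, a lymphatic growth factor, at -0.64 (SE 0.051, limma adjusted p = 0.00679). Vegfb and Nrp2, with the highest signal among the rest, differed by 0.058 (SE 0.060) and 0.60 (SE 0.096) and did not pass.

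**Figure D4:**
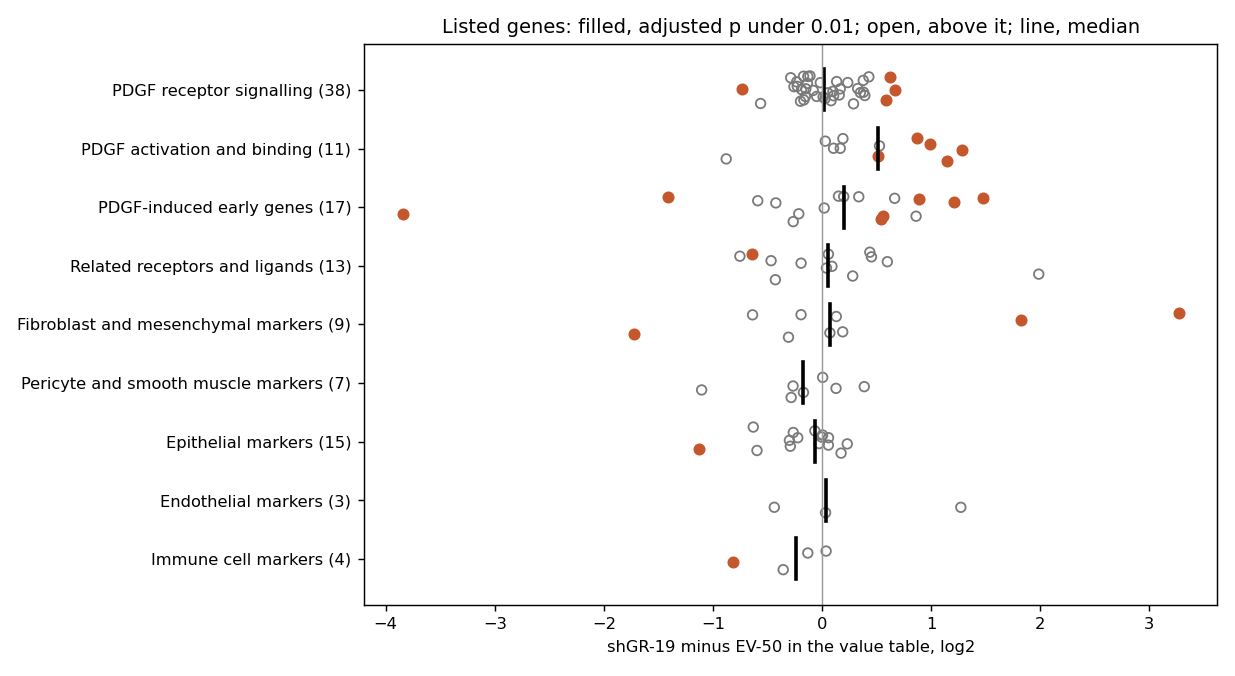
Table difference of shGR-19 minus EV-50 (log2) for the kept genes of each list, whose number is in parentheses, with filled points for an adjusted p below 0.01 and lines at the medians. Of the 11 genes on PDGF activation and binding 5 are filled and all 5 lie above 0, and in the early genes Ccl2 lies farthest below 0 at -3.84.

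The PDGF receptors are best known from mesenchymal cells and pericytes, so that markers of these and other cells were read beside them. Of 16 epithelial markers 15 were kept, with a summed signal of 1043 and 1003 times the 75th percentile in EV-50 and 1079 and 868 in shGR-19. Of these 0 passed as higher and 1 as lower, the basal keratin gene Krt14 at -1.13 (SE 0.049, limma adjusted p = 0.00332), whereas the simple keratin genes Krt18 and Krt8 differed by 0.23 (SE 0.046) and 0.058 (SE 0.070) and did not pass. Of 17 fibroblast and mesenchymal markers 9 were kept, of which 2 passed as higher (22.2%), 1 as lower (11.1%) and 6 did not pass. Among the 9, Col1a2, a chain of type I collagen, was higher by 3.27 (SE 0.046, limma adjusted p = 0.00120). Vim, which encodes vimentin, was higher by 1.82 (SE 0.18, limma adjusted p = 0.00946). The Vim probe was dim, with a signal of 43.4 and 16.7 in EV-50 and 53.3 and 67.1 in shGR-19. Postn, which encodes a matrix protein, was lower, at -1.72 (SE 0.055, limma adjusted p = 0.00253). Between the arrays numbered 2 Col1a2, Vim and Postn differed by 3.37, 2.02 and -1.63, and between those numbered 1 by -0.043, 0.33 and -0.34. Of the 6 that did not pass, Pdpn, Zeb1 and Twist1 differed by 0.19, 0.13 and 0.071 in the table. S100a4, Snai2 and Fn1 differed by -0.19, -0.31 and -0.64. The median of the 9 was 0.071, and their summed signal was 160 and 93.8 in EV-50 and 172 and 85.1 in shGR-19. S100a4, which encodes a calcium-binding protein and was singled out after its values were seen, made up 146 and 26.7 of this in EV-50 and 159 and 18.6 in shGR-19. The other 8 summed to 14.7 and 67.1 in EV-50 and 13.0 and 66.5 in shGR-19, low on the arrays numbered 1 and high on those numbered 2, with the lines overlapping. Not kept were Col1a1, above background on at most 2 arrays by any probe, and Col3a1, Thy1 and Lum, on at most 1. Nor were Dcn, Fap, Cdh2 and Tcf21, which were above background on 0 arrays.

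Of 12 pericyte and smooth muscle markers 7 were kept and 0 passed in either direction, with a median of -0.17. Their summed signal was 17.2 and 21.8 times the 75th percentile in EV-50 and 18.1 and 20.3 in shGR-19, and the lines overlapped. Without Acta2 it was 2.24 and 5.54 in EV-50 and 1.96 and 5.92 in shGR-19, again higher on the arrays numbered 2. Acta2 and Mcam, the highest of them in signal, differed by -0.17 (SE 0.064) and 0.13 (SE 0.055). The pericyte markers Rgs5, Des, Abcc9 and Kcnj8 were above background on 0 arrays. Of 7 endothelial markers 3 were kept and 0 passed, with Pecam1 and Cdh5 above background on 0 arrays and a summed signal from 0.120 to 0.133. The highest of them in signal, Tek and Cldn5, differed by 0.032 (SE 0.34) and 1.27 (SE 0.62) and did not pass. Of 7 immune markers 4 were kept, Ptprc was above background on 0 arrays, and 1 passed, Cd14 at -0.81 (SE 0.047, limma adjusted p = 0.00447), with a summed signal of 3.06 and 3.11 in EV-50 and 2.83 and 2.12 in shGR-19. Cd68 and Cd3e differed by 0.037 (SE 0.070) and -0.36 (SE 0.16) and did not pass. The part of any of these cell types in the receptor values was not tested, and in RNA from a whole culture more receptor RNA per cell cannot be told apart from more cells that carry it.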

How the data were processed

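The authors deposited the intensity of each spot, background-subtracted by Agilent Feature Extraction 10.5.1.1 and not scaled between arrays, and log2 values that GeneSpring produced by the steps Agilent recommends, not described further; the median of all probes was 0.076 and 0.038 in its EV-50 columns and -0.056 and -0.063 in its shGR-19 columns, and how arrays were scaled to each other is not known. Per the file headers 1 slide, scanned at 1 time, carried the 4 arrays. Control spots and outlier spots (74 to 139 an array) were left out, spots of 1 probe were averaged, and log2 was taken relative to the 75th percentile of each array (516 to 584). Lines were compared in each source with limma 3.58.1 in R 4.3.3, with Benjamini-Hochberg adjustment over all 24439 kept probes, and a call needed more than 2-fold and an adjusted p below 0.01, the limits in the study's methods, which name no adjustment. The steps were tested on simulated data.

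All 7 members were named with every probe. From each list the genes that passed in the table with the largest differences were named, at most 4 in each direction, and where fewer than 2 passed also the 2 of highest signal; 1 gene so chosen is not reported here by name. The members and lists were chosen with earlier results of these data known. Probe coordinates are those of mm9 in the deposited files. The alternatives were normexp (offset 50), quantile scaling, the percentile over detected probes, other filters and thresholds, a plain equal-variance test, a block for the replicate number, probes averaged per gene, a robust limma prior with a trend on intensity (statmod 1.5.0), and leaving out each array.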

Additional observations from a re-analysis of the deposited data

How the results depend on the processing

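On the scanner arrays no alternative called a member or, with 1 exception, any probe: a plain equal-variance test without adjustment called 6 probes (2 higher, 4 lower). The leave-one-out counts ranged from 0 to 0 in both sources for all probes, member probes and listed genes, against 1042, 3 and 10 in the table with all columns. The lone array of a line was then assumed to vary like the other line. With all probes kept the table gave 43 calls (15 higher, 28 lower), 0 members and 2 listed genes, and a plain equal-variance test with adjustment gave 15 (4 higher, 11 lower), 0 and 0. Without a limit on the fold it gave 2828 probes (1352 higher, 1476 lower) and 22 listed genes (15 higher, 7 lower). With the replicate number as a block, 0 probes, 0 members and 0 listed genes were called in the table, and 0 on the scanner arrays; samples that share a number deviated together on the scanner arrays (r = 0.57) and hardly in the table (r = 0.056), and the labels give no shared source. The cause of these losses was not tested, except that the block and each array left out leave fewer residual degrees of freedom. Member calls in the table were 2 with probes above background on all 4 arrays, where the dim Pdgfra probe drops out, and 3 under the other thresholds and with a robust prior. Signals near background limit Pdgfra, and no fold is given for Pdgfd.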
